A study of Mus musculus with 10 samples.

Results

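The replication-dependent histone genes, which encode the histones H1, H2A, H2B, H3 and H4 that package newly made DNA, were followed in CD117+ splenocytes over 48 h of lipopolysaccharide (LPS). Their probe sets were taken from the deposited array table as all those with at least 1 gene symbol of the Hist1h, Hist2h, Hist3h or Hist4h series. This gave 69 of 41345 probe sets, which carry 70 of the 30178 gene symbols in the table. There were 3 pairs with the same values on every array, so that 66 distinct probe sets were counted.

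The cells were RasGRP4-null or wild-type (WT) CD117+ splenocytes, purified with a CD117 positive selection kit from 5 male mice of each genotype, 9-12 weeks of age, all on the C57BL/6 background. RasGRP4 is a guanine nucleotide exchange factor for Ras, and CD117 is the receptor KIT. RNA was taken before LPS (0 h) and at 12, 24, 36 and 48 h of culture with LPS at 1 µg/ml, and each RNA was hybridized to 1 Affymetrix mouse gene array. The 10 arrays thus hold 1 array for each genotype and time point, with no replicate of any condition and no culture kept for the same time without LPS. Time in LPS and time in culture cannot be told apart, and neither can the effect of genotype and that of the 2 sets of mice.

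Histone mRNAs of this group are made in large amounts while a cell replicates its DNA and are degraded when replication ends. Most of their genes lie in clusters and have no introns. Their transcripts mostly end in a stem-loop bound by the protein SLBP rather than in a poly(A) tail. LPS is a mitogen of mouse B cells. In a bulk sample a larger share of cells in S phase and more histone RNA per cell cannot be told apart. The methods of the study name the One-Cycle Eukaryotic Target Labeling protocol of Affymetrix for the biotin-labelled cRNA, and the part of priming in the levels of transcripts without a poly(A) tail was not tested.

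The genes are so alike that most probe sets cannot be tied to 1 gene. Of the 66 distinct probe sets 20 carried 1 symbol and 46 carried several, up to 23 on 1 probe set. By class there were 5 probe sets for H1, 16 for H2A, 15 for H2B, 12 for H3 and 12 for H4, while 6 carried symbols of 2 classes. None of the H3 or H4 probe sets had a single symbol. Probe sets with the same symbols may measure the same transcripts and are not independent, and probe sets with several symbols are named here by their number.

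Sequences upstream of the genes show what the classes share besides their coding parts. In the RefSeq promoter table for the mouse build GRCm38.p6 a promoter window, from 250 bases before to 50 bases after the annotated start, was found for 61 of the 70 symbols. Each window was searched on both strands for the TATA box (TATAAA), the CCAAT box (CCAAT, bound by NF-Y) and the octamer (ATTTGCAT, bound by Oct-1, the product of Pou2f1). The CCAAT box was in all 6 H1, 17 H2A, 16 H2B and 10 H3 promoters but in 3 of 12 H4 promoters, and in 41.1% of 27025 genes with a promoter in the table. The octamer was in 7 of 16 H2B and 7 of 17 H2A promoters and in no H1, H3 or H4 promoter, against 1.97% of all genes. The TATA box was in 35 of 61 promoters, against 15.7% of all genes. The stretches just before the start are printed 5′ to 3′ on the strand of the gene for the 4 H2B genes with a tested probe set of their own, for Hist1h2bg, which shares all 3 of its tested probe sets with other genes and was lower in LPS on 2 of them, and for an H1 and an H2A gene set against them below. Capitals mark the octamer, the CCAAT box and the TATA box in either orientation. Each stretch is 140 bases of its window, and no match says only that these letters are not in the stretch. The window of Hist1h2bk also holds a TATA box and that of Hist1h2bg a CCAAT box, neither within the stretch printed.
Hist1h2bk: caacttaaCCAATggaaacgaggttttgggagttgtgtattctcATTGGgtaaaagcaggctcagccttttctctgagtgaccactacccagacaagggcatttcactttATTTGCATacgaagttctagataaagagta
Hist1h2bb: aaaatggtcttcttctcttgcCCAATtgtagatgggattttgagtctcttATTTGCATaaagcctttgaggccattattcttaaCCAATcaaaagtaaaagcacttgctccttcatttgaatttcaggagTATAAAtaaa
Hist1h2bm: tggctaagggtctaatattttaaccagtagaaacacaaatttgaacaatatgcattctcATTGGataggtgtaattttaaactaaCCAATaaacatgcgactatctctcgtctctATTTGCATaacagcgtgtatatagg
Hist2h2bb: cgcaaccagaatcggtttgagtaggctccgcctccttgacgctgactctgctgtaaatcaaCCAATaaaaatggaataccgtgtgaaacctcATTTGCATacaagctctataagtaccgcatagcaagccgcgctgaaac
Hist1h2bg: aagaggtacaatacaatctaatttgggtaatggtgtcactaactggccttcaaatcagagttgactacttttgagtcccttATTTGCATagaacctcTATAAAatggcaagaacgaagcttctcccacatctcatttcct
Hist1h1b: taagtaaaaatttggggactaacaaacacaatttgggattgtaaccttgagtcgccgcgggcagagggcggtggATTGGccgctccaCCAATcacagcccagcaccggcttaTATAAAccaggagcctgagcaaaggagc
Hist3h2a: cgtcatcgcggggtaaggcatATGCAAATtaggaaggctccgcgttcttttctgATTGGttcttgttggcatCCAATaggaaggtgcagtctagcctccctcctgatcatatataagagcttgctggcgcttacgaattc
The first 3 lie in the Hist1 cluster, at chr13:22035681-22035820 on the plus strand for Hist1h2bk, chr13:23746594-23746733 on the plus strand for Hist1h2bb and chr13:21721904-21722043 on the plus strand for Hist1h2bm. Hist2h2bb lies in the Hist2 cluster, at chr3:96269560-96269699 on the plus strand. The stretch of Hist1h2bg is chr13:23571260-23571399 on the plus strand, that of Hist1h1b is chr13:21780626-21780765 on the minus strand, and that of Hist3h2a is chr11:58954545-58954684 on the plus strand. All 5 H2B stretches hold the octamer in the forward orientation, 25 to 90 bases before the start, and that of Hist3h2a holds it reversed. The Hist1h1b stretch holds a CCAAT box in each orientation and a TATA box close to the start, and no octamer.

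The values are PLIER intensities, a summary of the probes of a probe set on a linear scale, and tests were run on log2(PLIER + 16). The level below which 95% of the 1150 probe sets for olfactory receptors lay on an array served as its background, 29.2 to 38.5 over the 10 arrays. By that measure 27 of the 66 distinct histone probe sets were above background on every array and 14 on none. The number above background was 37, 36, 42, 49 and 44 in RasGRP4-null cells at 0, 12, 24, 36 and 48 h, against 30, 36, 41, 46 and 42 in WT cells. Tests covered the 41 distinct histone probe sets that reached a PLIER value of 50 on 2 or more arrays, among 13050 probe sets of all genes. They comprise 13 probe sets with 1 symbol and 28 with several. The other 25 probe sets stayed lower, among them the testis histones Hist1h1t and Hist1h2ba, which were below background on all arrays. Hist1h2aa, the other testis histone on the array, was tested and had PLIER values of 27.7, 55.8, 15.5, 51.2 and 30.2 in RasGRP4-null cells, against 25.5, 16, 30.0, 9.21 and 19.5 in WT cells. No contrast called it on these values, whereas with the GAPDH-normalized values of the submitters it was called lower than 0 h over LPS and at 24 and 36 h.

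The arrays were checked for what the cells were. Rasgrp4 had a PLIER value of 16.7 in RasGRP4-null cells and 86.4 in WT cells at 0 h, and 23.7 to 25.5 in RasGRP4-null cells against 20.6 to 25.4 in WT cells in LPS, below background, so that the gene checks the genotype only at 0 h. Kit, which encodes CD117, ranged from 182.6 to 333.9 in RasGRP4-null cells and from 133.4 to 292.1 in WT cells. Markers of other cell types moved with time. All 12 macrophage and monocyte markers tested fell in LPS, and the summed PLIER of that list was 749 to 1212 in RasGRP4-null cells in LPS and 19810 at 0 h, against 661 to 1002 and 18599 in WT cells. All 8 neutrophil markers tested fell as well, the sum being 152 to 534 in LPS and 5072 at 0 h in RasGRP4-null cells, against 164 to 831 and 8376 in WT cells. The summed B cell list was 4195 to 8181 in RasGRP4-null cells in LPS and 7144 at 0 h, against 6345 to 8995 and 7921 in WT cells, and 3 of 9 B cell markers rose while 2 fell. The summed markers of conventional dendritic cells were 2008 to 2267 in RasGRP4-null cells in LPS and 4584 at 0 h, against 1891 to 2289 and 4732 in WT cells, with 2 of 8 higher and 6 lower. Those of red cell precursors were 436 to 1198 in RasGRP4-null cells in LPS and 1746 at 0 h, against 464 to 919 and 1753 in WT cells, with 1 of 7 higher and 4 lower. Of 8 T cell markers none rose and 5 fell, of 6 NK cell markers 2 rose and 3 fell, and of 4 mast cell markers 2 rose and 1 fell. Of all 13050 probe sets tested, 47.5% were higher and 21.4% lower over LPS. The part of the marker changes in the histone values was not tested. The source names of the RasGRP4-null arrays titled 24, 36 and 48 h give 12, 24 and 36 h, and the titles were followed.

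Over the whole of LPS exposure the histone probe sets stood above 0 h by more than most genes did. In the fit with genotype and time point, the mean of 12 to 48 h was higher than 0 h for 33 of the 41 histone probe sets and lower for 4, with a median log2 change of 0.79 (limma, adjusted p under 0.05). Of all 13050 probe sets tested, 47.5% were higher and 21.4% lower, with a median of 0.25. The level against 0 h depends on how the arrays are scaled. On the GAPDH-normalized scale, in which the submitters multiplied each array by 1 factor, the median of all probe sets moved by -0.97 on the log2 scale, with 7 histone probe sets higher and 19 lower. Relative to the median of all probe sets tested, 34 of the 41 histone probe sets were above it on the PLIER, the GAPDH-normalized and the quantile-normalized scale alike. Directions against 0 h are therefore those of the PLIER scale unless another is named, and the steps between time points in LPS are given beside them, since GAPDH scaling moved the median of all probe sets by -0.08 from 12 to 24 h and by -0.01 from early to late LPS.

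At 12 h the calls among the histone genes were few and split. Against 0 h 9 probe sets were higher and 6 lower, where 41.1% of all probe sets were higher and 19.8% lower, and the histone median was 0.01 against 0.23 for all. On the GAPDH-normalized scale none was higher and 30 were lower, where 9091 of all 13050 were called in either direction, and the medians were -0.94 for the histone probe sets and -0.69 for all. From 12 to 24 h 32 of 41 rose and none fell, with a median log2 change of 0.96, while 1.79% of all probe sets rose, 0.644% fell, and the median of all was -0.05. On the GAPDH-normalized scale 22 rose and none fell, of 191 called among all 13050. At this step 40 of the 41 lay above the median of all probe sets on each of the 3 scales, and 38 were higher at 24 h than at 12 h in both genotypes, against 22.9% of all probe sets. The count of 32 was 0 without either of the 24 h arrays and 5 without the RasGRP4-null array of 12 h, where 0, 0 and 31 of all 13050 probe sets were called against 318 with every array, whereas the median stayed between 0.74 and 1.12 whichever array was left out. On all 4 arrays of 24 and 36 h the values of 35 of the 41 probe sets were higher than on both arrays of 12 h, a pattern that 12.0% of all probe sets tested showed.

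**Figure D1:**
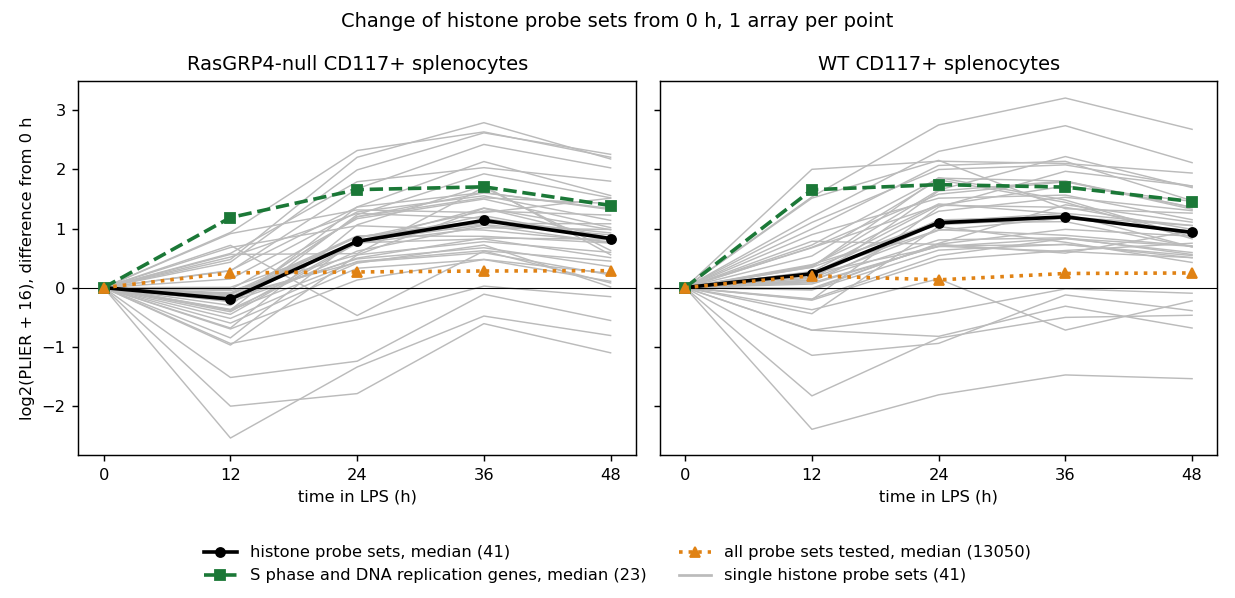
Change of log2(PLIER + 16) from 0 h in RasGRP4-null (left) and WT (right) CD117+ splenocytes against time in LPS in hours, 1 array per point. Grey lines are the 41 histone probe sets tested and the thick lines the medians of these, of 23 S phase and DNA replication genes and of all probe sets tested. At 12 h the histone median was -0.19 in RasGRP4-null and 0.23 in WT cells, below the replication genes at 1.19 and 1.66, and at 48 h it was 0.83 and 0.93.

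Against 0 h 34 of the 41 were higher and 4 lower at 24 h (38.9% and 20.0% of all probe sets), 35 higher and 2 lower at 36 h (42.9% and 18.1%), and 32 higher and 3 lower at 48 h (42.8% and 17.9%). On the GAPDH-normalized scale these splits were 9 and 11, 14 and 6, and 8 and 10, where 9695, 9503 and 9008 of all 13050 probe sets were called in either direction. The histone medians on that scale were -0.12, 0.06 and -0.06, beside -0.80, -0.75 and -0.66 for all. The histone medians were 0.96, 1.16 and 0.96 at 24, 36 and 48 h on the PLIER scale, beside 0.20, 0.26 and 0.27 for all probe sets. Only 10 of the 41 exceeded 0 h on all 4 LPS arrays of both genotypes and 3 lay below it on all, against 43.7% and 21.2% of all probe sets.

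On the PLIER scale most histone probe sets had their highest level at 36 h. In RasGRP4-null cells 33 of the 41 probe sets had their highest value at 36 h, as 13.0% of all probe sets tested did. In WT cells 23 peaked at 36 h and 11 at 24 h, against 14.6% and 10.1% of all probe sets. On the GAPDH-normalized scale 21 of the 41 were above 0 h at 36 h in RasGRP4-null cells and 24 in WT cells. Of all 13050 probe sets 1972 and 2400 were. The others did not peak at 36 h on that scale. The source name of the RasGRP4-null array titled 36 h gives 24 h, so the peak times of the genotypes depend on the label followed. The means of 36 and 48 h were higher than those of 12 and 24 h for 31 histone probe sets and lower for none (median 0.56), where 26.1% of all 13050 probe sets were called, 2093 of them higher and 1314 lower (median 0.03). Between 36 and 48 h no probe set of any kind passed the test (0.00% in either direction in limma). At an unadjusted p under 0.05 in limma were 10 of the 41 histone probe sets and 387 of all 13050. Of the 41 histone changes 40 were negative, with a median of -0.28. In both genotypes 37 of 41 were higher at 36 h than at 48 h, against 28.6% of all probe sets, and 38 were higher at 36 h than at 12 h, against 34.2%. With the times of the source names in place of the titles, none passed the test for 24 h against 12 h or for late against early LPS, and the medians were 0.83 and 0.25.

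**Figure D2:**
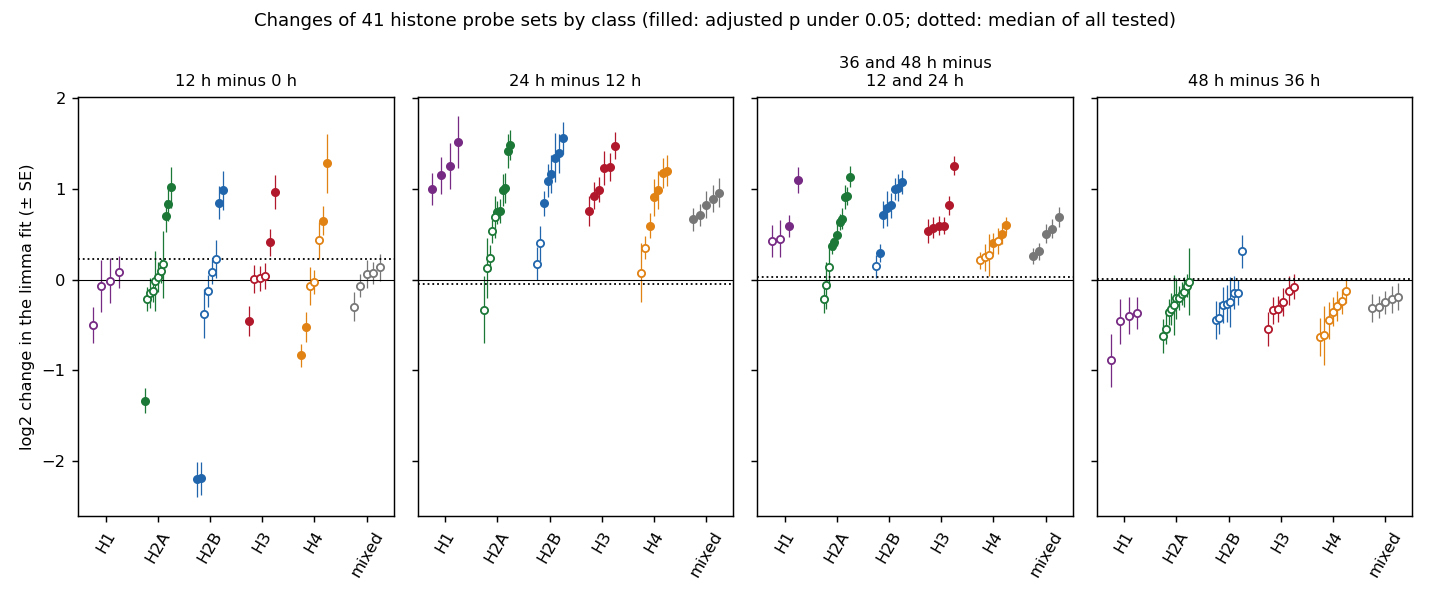
Log2 changes of the 41 histone probe sets in the limma fit, with standard errors, for 4 steps between time points. Columns are the histone classes and probe sets with symbols of 2 classes (mixed), filled points passed an adjusted p of 0.05, and the dotted line is the median of all probe sets tested. Nearly all points lie above the dotted line from 12 to 24 h and all but 1 below it from 36 to 48 h.

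H1, the linker histones that bind DNA between nucleosomes, were measured by 4 tested probe sets with 1 symbol each, and all 4 rose from 12 to 24 h (median 1.20), on the GAPDH-normalized scale too. Over LPS all 4 were higher than 0 h (median 0.85), but none was higher and 1 lower on the GAPDH-normalized scale. None passed the test at 12 h. Hist1h1c had PLIER values of 188, 88.0, 283, 502 and 348 in RasGRP4-null cells at 0, 12, 24, 36 and 48 h, against 136, 133, 239, 385 and 311 in WT cells. The PLIER values at 24 to 48 h were above those at 0 and 12 h in both genotypes. The mean of 36 and 48 h exceeded that of 12 and 24 h by a log2 difference of 1.10 (standard error 0.14, limma adjusted p = 0.00057). Hist1h1b had 133, 76.5, 295, 475 and 202 in RasGRP4-null cells, against 116, 175, 450, 342 and 217 in WT cells. On the PLIER scale it peaked at 36 h in RasGRP4-null and at 24 h in WT cells, as Hist1h1a and Hist1h1d did. The source name of the RasGRP4-null array titled 36 h gives 24 h. The step of Hist1h1b from 12 to 24 h was 1.52 (standard error 0.29, limma adjusted p = 0.022). Hist1h1d was at 38.7 and 34.8 in RasGRP4-null cells at 0 and 12 h, against 30.4 and 40.0 in WT cells. It peaked at 123 in RasGRP4-null and 106 in WT cells, where the 36 h value was 103.

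H2A and H2B form the pair of dimers at the sides of the nucleosome, and the histone probe sets that fell most at 12 h on the PLIER scale were theirs. From 12 to 24 h 6 of 11 H2A probe sets and 6 of 8 H2B probe sets rose. Over LPS 8 H2A probe sets were higher and 1 lower, and 6 H2B probe sets were higher and 2 lower, whereas on the GAPDH-normalized scale 2 H2A probe sets were higher and 7 lower and 1 H2B probe set was higher and 3 lower. Probe set 17400545, with 5 symbols, among them Hist2h2aa1 and Hist2h2aa2, had 2335, 1975, 3308, 4189 and 4133 in RasGRP4-null cells, against 2187, 2171, 3650, 4348 and 4011 in WT cells. From 12 to 24 h it rose by 0.74 (standard error 0.13, limma adjusted p = 0.015; on the GAPDH-normalized scale 0.66, adjusted p = 0.13). Hist1h2af, which has a probe set of its own, had 1232, 895, 2084, 2501 and 2452 in RasGRP4-null cells, against 1123, 1254, 2216, 2554 and 2159 in WT cells. The 24 to 48 h PLIER values of both probe sets were above all those of 0 and 12 h. On the GAPDH-normalized scale both were highest at 0 h in RasGRP4-null cells. In WT cells probe set 17400545 was highest at 0 h and Hist1h2af at 36 h on that scale.

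Hist1h2bk, whose promoter stretch is printed first, had an LPS change of 2.18 (standard error 0.17, limma adjusted p = 1.4e-06), and 1.34 on the GAPDH-normalized scale (limma adjusted p = 1.3e-05). Its values were 66.5, 95.1, 312, 491 and 378 in RasGRP4-null cells, against 30.4, 118, 297, 413 and 281 in WT cells. The WT value at 0 h was below the background of its array, 38.5, and that of RasGRP4-null cells above it, so that 1 of the 2 arrays at 0 h measured the gene. The 12 h values lay between those of 0 h and of the later times in each genotype. Hist1h2bb had 88.0, 64.1, 229, 379 and 282 in RasGRP4-null cells, against 95, 105, 329, 371 and 269 in WT cells, with no call at 12 h and a step from 12 to 24 h of 1.56 (standard error 0.18, limma adjusted p = 0.0039). Hist2h2bb had 109, 53.2, 207, 291 and 276 in RasGRP4-null cells, against 115, 125, 265, 269 and 196 in WT cells, likewise with no call at 12 h. Hist1h2bm was already higher at 12 h, by 0.85 (standard error 0.18, limma adjusted p = 0.0020) but -0.09 on the GAPDH-normalized scale, at 95.8, 195, 262, 254 and 303 in RasGRP4-null cells, against 171, 307, 296, 265 and 349 in WT cells, and was the only 1 of the 41 with a positive change from 36 to 48 h. The promoter stretches of all 4 hold the octamer.

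The 9 probe sets that were higher at 12 h on the PLIER scale, none of which was called higher on the GAPDH-normalized scale, came from 4 classes. Besides Hist1h2bk and Hist1h2bm they were Hist2h2ac, Hist2h2ab and probe set 17291057 (H2A, 10 symbols), 17285821 and 17400555 (H3, 4 and 9 symbols), and 17285687 and 17291053 (H4, 13 symbols each). Hist2h2ac had 206, 255, 555, 662 and 538 in RasGRP4-null cells, against 138, 314, 598, 633 and 490 in WT cells, and rose by 0.98 from 12 to 24 h (limma adjusted p = 0.019). Its 12 h value lay between those of 0 h and of the later times in each genotype. Hist2h2ab had 49.1, 77.1, 139, 131 and 99.8 in RasGRP4-null cells, against 36.9, 135, 219, 117 and 111 in WT cells. It peaked at 24 h in both genotypes, and the mean of its late values was not higher than that of its early ones (-0.21, limma adjusted p = 0.38). Probe set 17291057 had 28.5, 45.9, 189, 292 and 185 in RasGRP4-null cells, against 27.3, 83.2, 198, 273 and 171 in WT cells, from below background at 0 h in both. For a group at or below background on all its arrays only a bound is given, from the mean log2 PLIER of the brighter group and, in the dimmer one, the higher of value and background on each array. Probe set 17291057 was at least 4.52-fold higher in LPS than at 0 h (limma adjusted p = 1.0e-06).

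**Figure D3:**
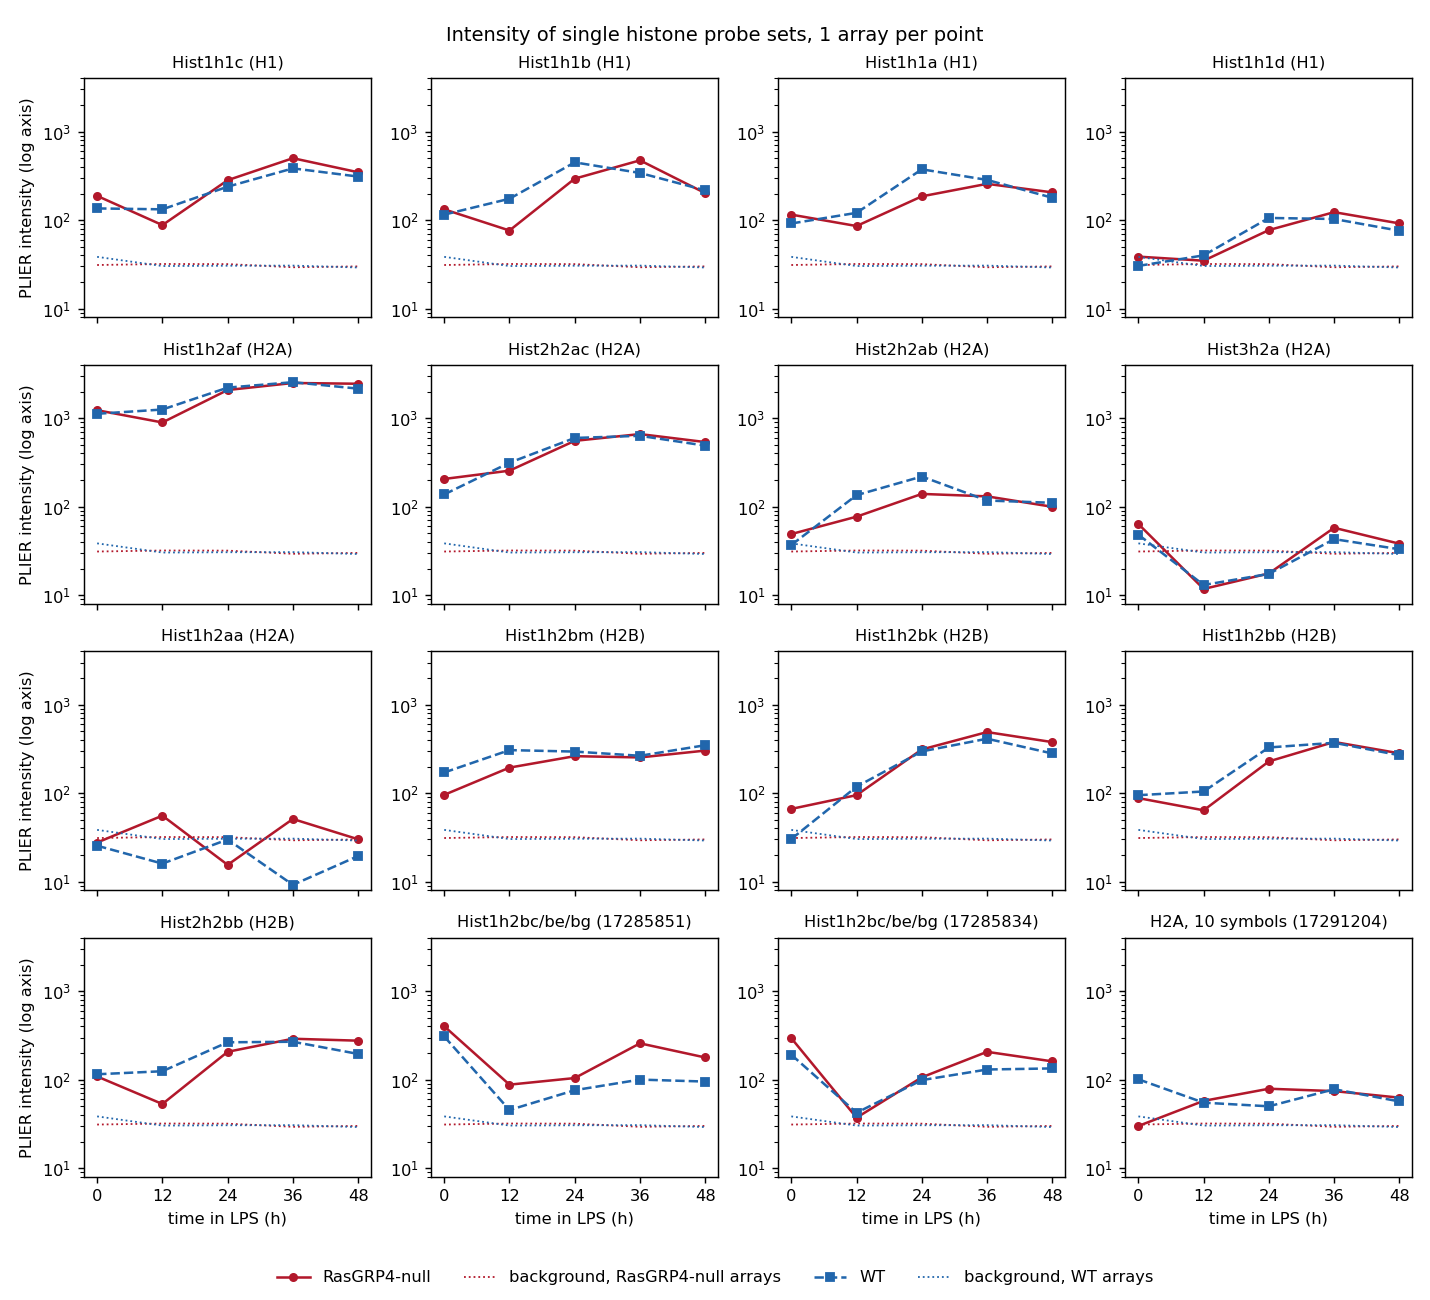
PLIER intensity on a log axis against time in LPS in hours for the 13 tested histone probe sets with 1 symbol and 3 others named in the text, in RasGRP4-null and WT cells, 1 array per point. Dotted lines are the background of each array. Hist1h2bk, Hist1h2bb and the H1 genes stand highest at 24 to 48 h, while Hist3h2a and the Hist1h2bc/be/bg pair stand lowest at 12 h.

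H3 and H4 form the core of the nucleosome, and their probe sets rose in the same step. All 6 H3 probe sets rose from 12 to 24 h (median 1.11), and 5 of them did on the GAPDH-normalized scale. Over LPS 5 were higher and none lower (median 1.10), whereas 2 were higher and 1 lower on the GAPDH-normalized scale (median 0.06). Probe set 17400555 had 754, 836, 1858, 2246 and 1679 in RasGRP4-null cells, against 668, 1077, 1779, 2238 and 1868 in WT cells. Probe set 17408015, with 8 symbols, was below background at 0 and 12 h, at 4.41 and 8.84 in RasGRP4-null cells and 8.85 and 5.57 in WT cells. It then had 49.1, 93.5 and 67.2 in RasGRP4-null cells, against 47.9, 81.3 and 65.8 in WT cells, and was at least 1.56-fold higher at 24 h than at 12 h (limma adjusted p = 0.0039). On the PLIER scale all 6 H3 probe sets peaked at 36 h in RasGRP4-null cells and 5 did in WT cells. Of 7 H4 probe sets 5 rose from 12 to 24 h (median 0.91), and 2 did on the GAPDH-normalized scale. Over LPS 5 were higher and 1 lower (median 0.54), whereas 2 were higher and 4 lower on the GAPDH-normalized scale (median -0.45). Probe set 17291053 had 33.2, 57.5, 155, 185 and 156 in RasGRP4-null cells, against 34.8, 67.7, 167, 161 and 111 in WT cells. In PLIER values all 7 H4 probe sets peaked on the array titled 36 h in RasGRP4-null cells, whose source name gives 24 h. In WT cells 5 of the 7 peaked at 24 h. The 5 tested probe sets with symbols of 2 classes all rose from 12 to 24 h.

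Over LPS 4 probe sets were lower than 0 h. Both with only the symbols Hist1h2bc, Hist1h2be and Hist1h2bg fell at 12 h and stood higher again in late LPS. Probe set 17285851 had 402, 88.0, 104, 258 and 178 in RasGRP4-null cells, against 308, 45.5, 76.1, 100.4 and 95.4 in WT cells, a change of -2.20 at 12 h (standard error 0.20, limma adjusted p = 6.1e-06). Probe set 17285834 had 295, 37.2, 106, 207 and 161 in RasGRP4-null cells, against 192, 42.3, 99.0, 130.5 and 134 in WT cells, a change of -2.19 at 12 h (standard error 0.18, limma adjusted p = 4.0e-06). Every LPS value of both was below that of 0 h in the same genotype. Probe set 17291195, which carries these 3 symbols with Hist1h1e and Gm11398, was not called at 12 h (-0.30, limma adjusted p = 0.12) and was higher over LPS (0.52, limma adjusted p = 0.0034). RefSeq gives lengths of 8282 and 37455 bases for the genes Hist1h2bc and Hist1h2be and of 464 for Hist1h2bg, and 7 of the matched histone genes are longer than 1000 bases. Hist3h2a had 63.7, 11.8, 17.6, 57.8 and 38.2 in RasGRP4-null cells, against 48.3, 13.0, 17.4, 43.0 and 33.0 in WT cells, below background at 12 and 24 h. It was at least 1.78-fold lower at 12 h than at 0 h (limma adjusted p = 2.0e-05), and at least 1.35-fold higher in late than in early LPS (limma adjusted p = 0.00024). The fourth was the H4 probe set 17408021, at 64.2, 25.6, 38.9, 65.6 and 56.1 in RasGRP4-null cells, against 46.2, 21.7, 30.3, 45.3 and 42.2 in WT cells. All 4 were higher in late than in early LPS.

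The genes that serve histone production were set beside them. Of 23 genes of S phase and DNA replication 21 were higher at 12 h (median 1.44) and all 23 at 24 h (median 1.69). Of all probe sets 41.1% were higher at 12 h (median 0.23) and 38.9% at 24 h (median 0.20). On the GAPDH-normalized scale 13 of the 23 were higher and 3 lower at 12 h (median 0.49, beside -0.69 for all probe sets). From 12 to 24 h 5 of the 23 rose (median 0.46), against 1.79% of all probe sets. Cdc45, part of the replicative helicase, had 28.2, 154, 266, 343 and 309 in RasGRP4-null cells, against 26.3, 180, 271, 393 and 326 in WT cells. Ccna2, a cyclin of S phase, was not called at 12 h (0.01, limma adjusted p = 0.98), with 179, 121, 499, 621 and 571 in RasGRP4-null cells, against 169, 251, 469, 587 and 546 in WT cells. The other exception was Tk1, thymidine kinase, at 0.35 (limma adjusted p = 0.097). On the GAPDH-normalized scale Ccna2 (-0.96, limma adjusted p = 0.00077) and Tk1 (-0.56, limma adjusted p = 0.011) were lower at 12 h. Mcm5, a subunit of the helicase, was higher by 1.94 at 12 h (limma adjusted p = 3.7e-06) and showed no call from early to late LPS (-0.04, limma adjusted p = 0.84).

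Of 16 tested genes for histone transcription and 3′ end processing 14 rose in LPS and none fell (median 0.79), and 13 of the 16 were higher at 12 h. Of all probe sets 47.5% were higher and 21.4% lower over LPS (median 0.25), and 41.1% were higher at 12 h. On the GAPDH-normalized scale 1 of the 16 was higher and 7 lower over LPS, with a median of -0.17 beside -0.71 for all probe sets. Npat, the coactivator of histone transcription, had 67.2, 152, 220, 208 and 201 in RasGRP4-null cells, against 81.6, 219, 211, 258 and 225 in WT cells, and changed by 1.33 over LPS (limma adjusted p = 3.4e-06). Eri1, an exonuclease that trims the stem-loop, rose by 1.28, Casp8ap2, which acts in histone transcription and 3′ end processing, by 1.11 and Cpsf2, of the 3′ cleavage complex, by 1.22, and none of these 3 passed the test on the GAPDH-normalized scale, where Npat did. Slbp, which binds the stem-loop, was higher by 0.39 on the PLIER scale (limma adjusted p = 0.0056) and changed by -0.64 on the GAPDH-normalized scale (limma adjusted p = 0.0011), with 305, 360, 457, 385 and 322 in RasGRP4-null cells, against 289, 421, 515, 403 and 331 in WT cells. Srrt, which acts with the cap-binding complex, and Zcchc6, a terminal uridylyltransferase, did not pass the test (0.10 and -0.21). Of 15 histone chaperone genes, whose products carry histones to DNA, 14 rose (median 0.99) and none fell, beside 47.5% and 21.4% of all probe sets. On the GAPDH-normalized scale 5 of the 15 were higher and 6 lower (median -0.05, beside -0.71 for all probe sets). Asf1b rose by 1.83, Chaf1a by 1.47, Nasp by 1.51 and Daxx by 1.55, all 4 also called higher on the GAPDH-normalized scale, and Rbbp4 was the 1 not called (0.10, limma adjusted p = 0.42).

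Genes of histone variants with other symbols, of which 8 were tested, mostly were not called higher than 0 h over LPS. Over LPS 1 of the 8 was higher and 4 lower (median -0.30), beside 47.5% and 21.4% of all probe sets (median 0.25). H2afx, whose product is phosphorylated at DNA breaks, was the 1 of the 8 called higher over LPS (1.18, limma adjusted p = 4.4e-06). It had 673, 1074, 1733, 2088 and 1450 in RasGRP4-null cells, against 674, 1161, 1682, 1781 and 1619 in WT cells. On the GAPDH-normalized scale none of the 8 was called higher over LPS and 7 were lower (median -1.32, beside -0.71 for all probe sets). From 12 to 24 h 3 of the 8 rose and 0 fell (median 0.26), against 1.79% and 0.644% of all probe sets. In late against early LPS 4 were higher and 0 lower (median 0.22), where 2093 of all 13050 were higher and 1314 lower. With GAPDH-normalized values 0 were called from 12 to 24 h, and 3 were higher and 0 lower in late LPS. H3f3b, which encodes a replacement H3, changed by -1.01, H2afz by -0.67, H1f0 by -0.40 and H2afv by -0.36 over LPS, and all 4 passed the test. H1f0, a linker histone of resting cells, had 141, 41.0, 66.5, 167 and 177 in RasGRP4-null cells, against 110, 43.0, 60.5, 140 and 130 in WT cells, lowest at 12 h as the Hist1h2bc/be/bg pair was. Cenpa, the H3 variant of centromeres, was lower at 12 h (-1.01, limma adjusted p = 0.00033) and not called over LPS (-0.23, limma adjusted p = 0.13). Over LPS it was lower on the GAPDH-normalized (-1.27, limma adjusted p = 5.9e-06) and the quantile-normalized scale (-0.45, limma adjusted p = 0.0097).

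Between the genotypes no histone probe set was called different. Over the 5 time points none of the 41 passed the test for RasGRP4-null minus WT in limma (6 at an unadjusted p under 0.05, and none in the methods' t-test after Benjamini-Hochberg adjustment, with 4 at an unadjusted p under 0.05), where 0.123% of all probe sets were higher and 0.0153% lower, and the histone median was -0.01. Probe set 17285851 (Hist1h2bc/be/bg) came closest, with values in RasGRP4-null cells above those in WT cells at all 5 time points and a difference of 0.71 (standard error 0.12, limma adjusted p = 0.062). It passed the test on the GAPDH-normalized scale, with an intensity trend, and in LPS alone. The partner probe set 17285834 with the same 3 symbols was lower in RasGRP4-null than in WT cells at 12 h and had a difference of 0.28 (limma adjusted p = 0.48). The RasGRP4-null value exceeded the WT value at all 5 time points for 3 of the 41 and fell short of it at all 5 for 3, against 5.78% and 3.98% of all probe sets. With the times of the source names the histone median of RasGRP4-null minus WT was 0.10, beside 0.01 for all probe sets.

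The response to LPS was not called different for any of the 41 either (5 at an unadjusted p under 0.05 in limma, with 0.146% of all probe sets higher and 0.0460% lower). The RasGRP4-null response minus the WT response was negative for 33 of the 41, with a median of -0.20 beside 0.03 for all probe sets. Each response is set against 1 array at 0 h. With the times of the source names the median was -0.04, beside 0.05 for all probe sets. The 1 probe set of the 41 that was above 0 h on all 4 LPS arrays of one genotype and below it on all 4 of the other was 17291204 (H2A, 10 symbols), a pattern of 2.19% of all probe sets. It had 30.0, 57.7, 79.1, 74.4 and 62.7 in RasGRP4-null cells, against 101, 55.1, 50.1, 78.1 and 56.9 in WT cells, so that the genotypes differed most at 0 h, and the difference in response was 1.51 (standard error 0.25, limma adjusted p = 0.058). It passed the test on the GAPDH-normalized scale (1.65, limma adjusted p = 0.030) and the quantile-normalized scale (1.53, limma adjusted p = 0.036). The RasGRP4-null value at 0 h was below the background of its array, 31.2. The differences of the 3 other tested probe sets with the same 10 symbols were -0.18 for 17291012, -0.18 for 17291057 and -0.29 for 17285867, and none was called. Set out by time point, with 1 array on each side and thus no test, the histone values in RasGRP4-null cells were above those in WT cells for 31, 7, 14, 31 and 30 of the 41 probe sets at 0, 12, 24, 36 and 48 h. For all probe sets these shares were 46.6%, 49.5%, 64.1%, 49.2% and 45.8%. With GAPDH-normalized values the histone counts were 34, 24, 5, 27 and 30, and the shares of all were 62.5%, 87.8%, 38.6%, 44.0% and 48.1%. The median difference at 12 h was -0.29 on the log2 scale with PLIER and 0.06 with GAPDH-normalized values, and relative to the median of all probe sets it was -0.29 with PLIER, -0.28 with GAPDH-normalized and -0.28 with quantile-normalized values. The S phase and DNA replication genes were lower in RasGRP4-null than in WT cells at 12 h in 21 of 23 cases (median -0.40). On the same arrays the summed B cell markers were 4195 in RasGRP4-null and 6345 in WT cells. In the same order the sums were 819 and 1195 for NK cells, 534 and 831 for neutrophils, and 732 and 784 for T cells. They were 883 and 441 for mast cells, 1198 and 919 for red cell precursors, 1212 and 1002 for macrophages and monocytes, and 2055 and 1891 for conventional dendritic cells. The part of these marker differences in the histone difference was not tested.

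**Figure D4:**
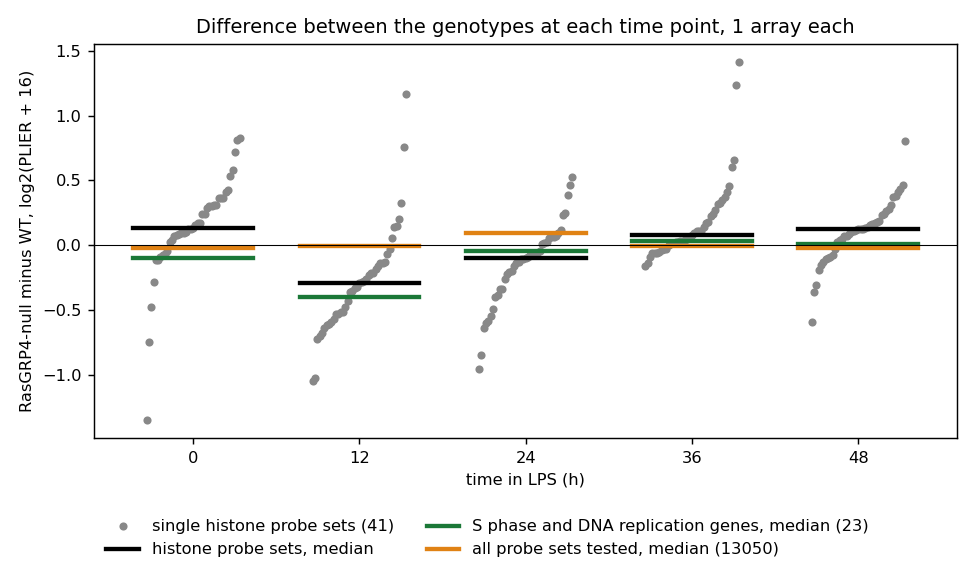
RasGRP4-null minus WT on the log2(PLIER + 16) scale at each time in LPS in hours, from 1 array of each genotype. Points are the 41 histone probe sets in order of their difference, and bars are medians of these, of 23 S phase and DNA replication genes and of all probe sets tested. The histone median was 0.13, -0.29, -0.09, 0.08 and 0.12 from 0 to 48 h.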

How the data were processed

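RNA of CD117+ splenocytes was measured on 10 Affymetrix mouse gene arrays (MoGene-2.0-st). The authors summarized the probes of each probe set to PLIER signal intensities in Affymetrix Expression Console and deposited them with a GAPDH-normalized table, in which each array is multiplied by 1 factor, and the value table of the series holds the latter rounded to within 0.5. Biotin-labelled cRNA was made by the One-Cycle Eukaryotic Target Labeling protocol of Affymetrix, and software versions are not given in the sources used here. A further 10 per-sample columns repeat others and were not used. No columns of comparisons by the authors were used. The number of arrays limits the precision, and 1 array per genotype and time point gives no replicate of any condition.

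Values were analysed as log2(PLIER + 16) with limma 3.58.1 in R 4.3.3, over 13050 probe sets with at least 1 symbol and an intensity of at least 50 on at least 2 arrays. Genotype and time point entered as additive terms (4 residual degrees of freedom), and genotype by LPS was added for the difference in response (3 residual degrees of freedom), so that p-values rest on the spread around a time course that both genotypes share. Tests were two-sided with Benjamini-Hochberg adjustment and a threshold of 0.05, and were tested on simulated data. Promoters and counts were handled with Python 3.11.15, pandas 2.3.3 and numpy 2.4.6, and figures with matplotlib 3.10.9. Of the 70 histone symbols 69 matched 1 RefSeq gene.

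Time points follow titles and descriptions. The series' design text names 6 h where the titles name 36 h, and 3 source names give an earlier time. Members and gene lists were chosen with earlier results of these data known. Probe sets to name were the 3 brightest with 1 symbol and the 3 with the smallest p for LPS in each class, the 5 largest rises and falls of a contrast, the testis histones, members with several symbols, and up to 4 genes of each list with its exceptions, of which those that show a pattern are given. The 24 h minus 12 h and 48 h minus 36 h contrasts were added after the data were seen. Alternatives covered scaling, pseudocount, filters, 1 probe set per gene, an intensity trend, source-name times and leaving out each array.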

Additional observations from a re-analysis of the deposited data

Results flagged for a closer look

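Probe set 17291204, with 10 symbols of H2A genes, moved one way with LPS in RasGRP4-null cells and the other way in WT cells. Its PLIER values at 12 to 48 h were 57.7 to 79.1 in RasGRP4-null cells, all above the 30.0 of 0 h, and 50.1 to 78.1 in WT cells, all below the 101 of 0 h. The RasGRP4-null response minus the WT response was 1.51 on the log2 scale (limma adjusted p = 0.058), which did not pass the threshold. It did on the GAPDH-normalized scale (1.65, limma adjusted p = 0.030), on the quantile-normalized scale (1.53, limma adjusted p = 0.036), with a pseudocount of 1 and with no filter. The RasGRP4-null value at 0 h was below the background of its array, 31.2. The 3 other tested probe sets with the same symbols had differences of -0.18, -0.18 and -0.29, and none was called. The array of each genotype at 0 h has no replicate.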

How the results depend on the processing

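Scaling moved the comparisons with 0 h the most. With GAPDH-normalized values 7 histone probe sets were higher and 19 lower over LPS, 0 higher and 30 lower at 12 h, 9 and 11 at 24 h, 14 and 6 at 36 h, and 8 and 10 at 48 h (11 lower with the value table, which gave the same other counts), and 1 each was called higher for genotype and for the difference in response. Hist1h2bm (17285683) turned to -0.087 at 12 h on both. Quantile normalization, a pseudocount of 1 and no filter each called the same 1 for the difference in response, probe set 17291204, and an intensity trend and LPS time points alone 1 for genotype. A pseudocount of 1 left 1 lower at 36 h. Without a filter 66 histone probe sets were tested, and 7, 11 and 5 were lower over LPS, at 12 h and at 48 h. A filter at 100 left 33 tested, with 2, 3 and 2 lower over LPS, at 12 h and at 24 h. Testing all probe sets left 1 lower at 36 h and 16 higher from 12 to 24 h. With 1 probe set per gene 13 histone probe sets were tested: 11 were higher and 1 lower over LPS, 4 and 2 at 12 h, 11 and 1 at 24 h, 11 and 0 at 36 h, 10 and 1 at 48 h, 8 higher late and 9 higher from 12 to 24 h. With the times of the source names 1 was lower at 24 h and at 36 h, 20 were higher and 1 lower at 48 h, and 0 were higher late or from 12 to 24 h. Leaving out 1 array at a time gave 5 to 11 higher at 12 h, 1 to 2 lower at 36 h, 1 to 3 lower at 48 h, 0 to 33 higher from 12 to 24 h, 0 to 1 higher for genotype, and 0 to 1 higher and 0 to 1 lower for the difference in response. The lowest 24 h minus 12 h counts were 0 without the RasGRP4-null or the WT array of 24 h and 5 without the RasGRP4-null array of 12 h. The cause of these changes was not tested, except that the filter settings and 1 probe set per gene change how many members are tested. The labels give no replicate numbers, and the genotypes were paired by time point both in the additive fit and in the methods' t-test, which called none for genotype. All other counts stayed within 1.5 times their value.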
